A study of Mus musculus with 6 samples.

Results

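The receptors described here are 9 receptor tyrosine kinases of hepatocytes and bile ducts and 1 co-receptor: Egfr, Erbb2, Erbb3, Met, Fgfr1, Fgfr2, Fgfr3, Fgfr4, Klb and Ddr1. They were picked by gene symbol, by a rule that sets no threshold on a measured value, and all 10 were found among the 18453 genes with an assigned fragment. The 10 receptors and the gene lists below were chosen with earlier results of these data known. Their shares beside those of all genes are therefore descriptions, not tests. Bulk RNA-seq covered the livers of 6 male mice with floxed Mettl14 alleles (Mettl14f/f), 3 that received AAV8-TBG-GFP (labelled WT) and 3 that received AAV8-TBG-Cre (labelled METTL14 KO). METTL14 is a subunit of the complex that writes m6A, a methyl mark on mRNA. All 6 mice carried the floxed alleles and ate HFD from 8 weeks of age, received the vector by tail vein after 10 weeks of HFD, and were sampled 8 weeks later. The TBG promoter directs Cre or GFP to hepatocytes, so the other cells of the liver are not its target, and whole liver RNA mixes all of them. The comparison asks how these receptor transcripts differed between livers given Cre and livers given GFP.

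Receptor tyrosine kinases bind a ligand outside the cell, pair up and phosphorylate each other, which recruits adaptors and starts the RAS-ERK and PI3K cascades. In liver, EGFR and MET receive the growth signals of regeneration in hepatocytes, while FGFR4 with the co-receptor β-Klotho (Klb) receives the gut hormone FGF15, which restrains bile acid synthesis. DDR1 differs from the rest because its ligand is collagen, and it is known mainly from epithelial cells.

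Each library held between 20356440 and 21010508 counts. Levels are given as CPM (counts scaled to the library total after TMM normalization) or, when genes are set against each other, as FPKM, which also divides by transcript length. The livers labelled with each vector are called GFP livers and Cre livers, and their values follow the order of replicates 1, 2 and 3. Mettl14 stood at 6.30, 6.43 and 5.81 CPM in the GFP livers and at 4.96, 5.38 and 4.86 CPM in the Cre livers. The groups did not overlap in CPM but did in FPKM (2.31, 2.31 and 2.01 against 1.92, 2.40 and 1.82). The log2 fold change of -0.29 ± 0.15 (SE) did not pass the test (edgeR adjusted p = 0.337). A gene total does not show whether a floxed exon was lost. For males on this diet with the same vectors, sampled sooner after the vector, the paper reported substantially less liver METTL14 protein and significantly lower total m6A. The Cre livers are named by their label here. The library names came in a short form (AAV8-TBG-GFP replicates 1 and 2, AAV8-TBG-Cre replicate 1) and a long form (the other 3 libraries), which no source explains, and values within each form are given where they matter. The 10 hepatocyte markers checked, such as albumin, were all present and summed to between 94398 and 111364 CPM in the GFP group and between 75384 and 98274 CPM in the Cre group. The 11 cholangiocyte markers checked summed to between 74.1 and 131 CPM in the GFP group and between 314 and 593 CPM in the Cre group. The tests and the 6 libraries measure the spread between single livers, 3 in each group.

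In the livers that received GFP, Egfr was the most abundant receptor transcript per length, at 47.8 ± 9.24 FPKM (SD, n = 3), and its range lay apart from all the others. Erbb3 (16.7 ± 6.91 FPKM), Met (15.8 ± 2.73 FPKM) and Fgfr4 (12.6 ± 2.55 FPKM) followed, and neighbours among these 3 overlapped. The receptors of EGF, HGF and FGF15 were therefore among the upper 4. Fgfr3 (7.68 ± 1.80 FPKM) and Klb (7.32 ± 1.64 FPKM) came next and overlapped each other. Fgfr2 (4.68 ± 0.719 FPKM), Fgfr1 (1.67 ± 0.511 FPKM), Ddr1 (0.687 ± 0.220 FPKM) and Erbb2 (0.290 ± 0.114 FPKM) closed the order, each apart from its neighbours. Ddr1 and Erbb2 were thus the scarcest of the 10.

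In the libraries labelled AAV8-TBG-Cre the order changed below Egfr, which stayed first at 77.8 ± 30.4 FPKM (SD, n = 3). Fgfr4 (16.8 ± 1.34 FPKM), Fgfr3 (14.9 ± 1.63 FPKM), Erbb3 (14.3 ± 4.26 FPKM) and Met (12.8 ± 1.70 FPKM) formed a run of overlapping neighbours. A second run of overlapping neighbours held Klb (6.41 ± 0.851 FPKM), Fgfr2 (6.29 ± 1.72 FPKM), Ddr1 (5.60 ± 3.31 FPKM) and Fgfr1 (5.03 ± 1.31 FPKM). Ddr1 and Fgfr1, which had stood apart below Fgfr2 in the GFP group, had ranges that overlapped it here. Erbb2 remained last at 0.660 ± 0.424 FPKM.

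**Figure D1:**
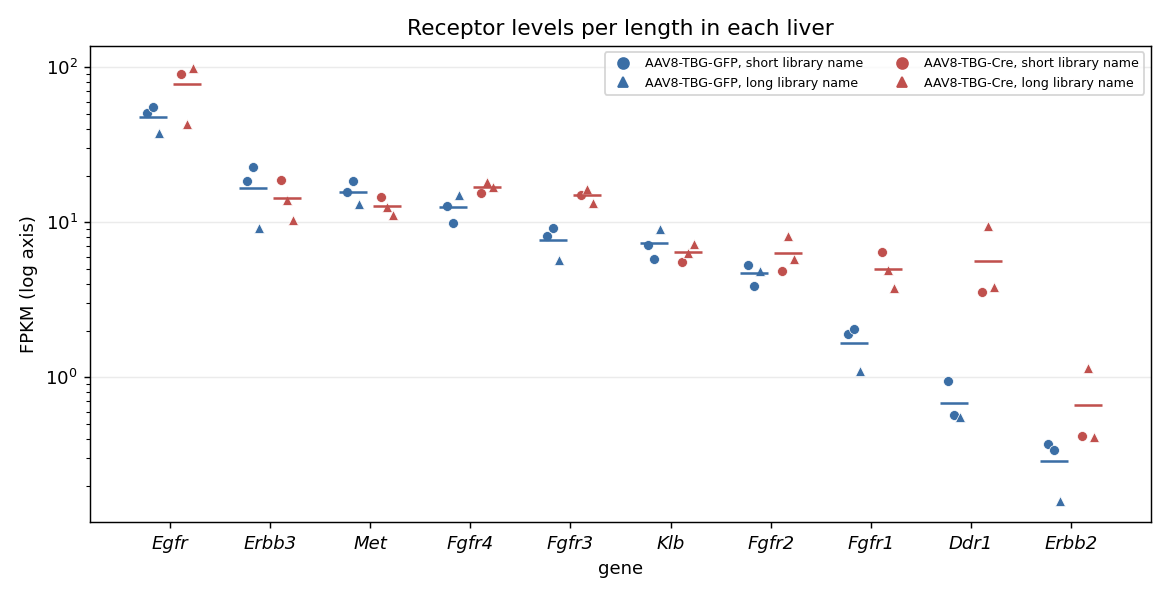
Levels of the 10 receptors in each liver, in FPKM on a log axis; each point is 1 library, coloured by vector, with the form of the library name shown by the marker, and horizontal bars mark group means. Egfr is highest in both groups, and the Cre points of Ddr1, Fgfr1, Fgfr3, Erbb2 and, narrowly, Fgfr4 lie above all of their GFP points.

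Of the 10 receptors, 1 was called at an adjusted p under 0.05 by edgeR's quasi-likelihood test, Ddr1, which rose. The background was 0.931% of the 13431 genes tested in either direction and 0.484% for higher genes. At the threshold the study used, an unadjusted p under 0.05 with a fold of at least 1.2, 3 receptors were higher (Ddr1, Fgfr1, Fgfr3) and 1 was lower (Met), against a background of 20.5% of genes in either direction, 12.0% higher and 8.41% lower. In CPM, the 3 livers of each group did not overlap for 4 receptors that were higher (Ddr1, Fgfr1, Fgfr3, Erbb2) and 1 that was lower (Met). The share over all genes was 27.0%, with 14.0% higher and 13.0% lower. The median log2 fold change was 0.31 over the 10 receptors and -0.0065 over all genes tested, with 7 receptors above 0 and 3 below. In whole liver RNA, a change in the number of cells of a type and a change in RNA per cell cannot be told apart.

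**Figure D2:**
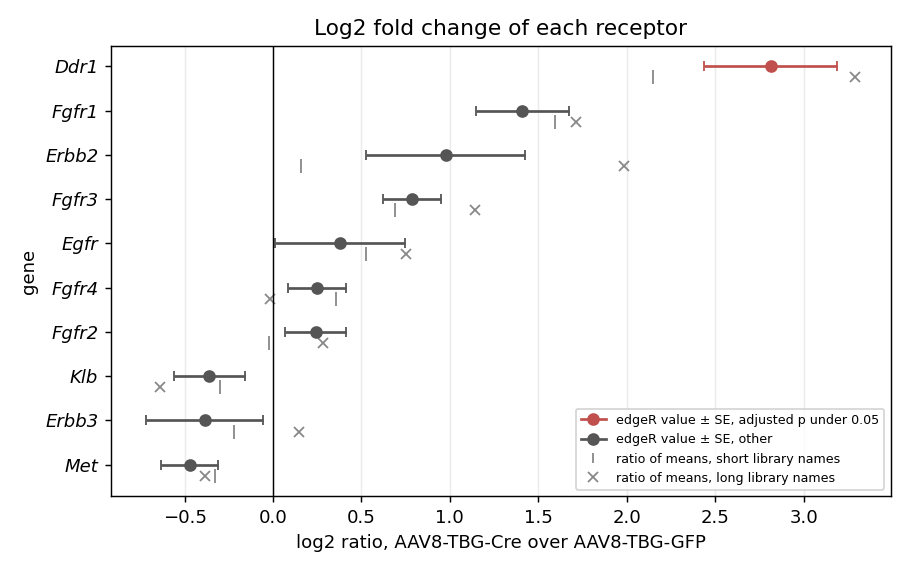
Log2 fold change of each receptor in CPM, libraries labelled AAV8-TBG-Cre over AAV8-TBG-GFP, from edgeR, with bars of 1 SE, red where the adjusted p is under 0.05; grey marks below each point give the ratio of means within the short (line) and long (cross) library names. Ddr1 is the farthest to the right at 2.81, followed by Fgfr1 at 1.41, and Met is the farthest to the left at -0.47.

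Of the 3 ErbB receptors, none was called by edgeR at the adjusted threshold or at the unadjusted one. Egfr (gene 13649, GRCm38.p6 chr11:16752203-16913907) is the receptor of EGF, TGF-α and amphiregulin. It stood at 274, 296 and 160 CPM in the GFP livers and 410, 162 and 376 CPM in the Cre livers. The groups overlapped: AAV8-TBG-Cre replicate 2 was as low as the lowest GFP liver, while the other 2 Cre livers lay above every GFP liver. With that spread the log2 fold change was 0.38 ± 0.37 (SE; edgeR adjusted p = 0.609). Within the short name form the log2 ratio was 0.52 and within the long one 0.75, and with the form as a covariate Egfr was at 0.64 (edgeR adjusted p = 0.284). Over all 16 alternatives the log2 fold change lay between 0.14 and 0.69, and none called Egfr at the adjusted threshold.

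The Egfr signal came from 2 annotated transcripts, and they are shown here because the shorter is too short for the whole coding sequence. The transcript of 5983 nt (NM_207655) is long enough for the whole receptor, whose coding sequence spans 3633 nt. The transcript of 2678 nt (NM_007912) is shorter than that. In GENCODE vM1 a short Egfr form (Egfr-002) has a coding sequence of 1968 nt, or 655 codons, against 1210 codons in the full form (Egfr-001), and both share their first 1926 coding bases. The forms part at exon 16, on the plus strand of NCBIM37. That exon ends early in the full form, at chr11:16787144-16787188, which then continues with exon 17 at chr11:16789916-16790057. In the short form it runs on to chr11:16787144-16787926 and is the last of 16 exons. Short Egfr transcripts are known to encode a secreted receptor that carries the ligand-binding part without the membrane span and kinase. The match of NM_007912 to Egfr-002 was not made by sequence. The coding sequences around this point, 5′ to 3′, share the bases in lower case and differ in those in capitals, which close the short form with the stop codon TAA.
Egfr-001, full: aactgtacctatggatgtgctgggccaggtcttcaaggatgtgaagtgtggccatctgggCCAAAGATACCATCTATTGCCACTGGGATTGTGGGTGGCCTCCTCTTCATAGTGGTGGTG
Egfr-002, short: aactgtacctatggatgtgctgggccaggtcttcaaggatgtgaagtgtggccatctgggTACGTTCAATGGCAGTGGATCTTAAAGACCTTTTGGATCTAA

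The long Egfr transcript stood at 240, 250 and 87.6 CPM in the GFP livers and at 307, 114 and 189 CPM in the Cre livers, a log2 ratio of means of 0.08. The short transcript stood at 34.1, 46.1 and 72.0 CPM in the GFP group and at 103, 47.8 and 187 CPM in the Cre group, a log2 ratio of means of 1.15 (exact two-sided permutation p = 0.2). Both transcripts overlapped between groups, and the short one was highest in AAV8-TBG-Cre replicate 3. Its share of the Egfr counts was 12.5%, 15.5% and 45.1% in the GFP livers and 25.2%, 29.6% and 49.7% in the Cre livers. The mean share was 24.4% ± 18.0 (SD, n = 3) against 34.8% ± 13.1 (SD, n = 3), a difference of 10.5 percentage points (exact two-sided permutation p = 0.5, where 0.1 is the smallest this design allows). The highest share in each group belonged to a library with the long name form, and the difference was 20.8 points without AAV8-TBG-GFP replicate 3 and 3.02 points without AAV8-TBG-Cre replicate 3. In FPKM, which weighs the shorter transcript more, the difference in share was 14.1 points (exact two-sided permutation p = 0.4).

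**Figure D3:**
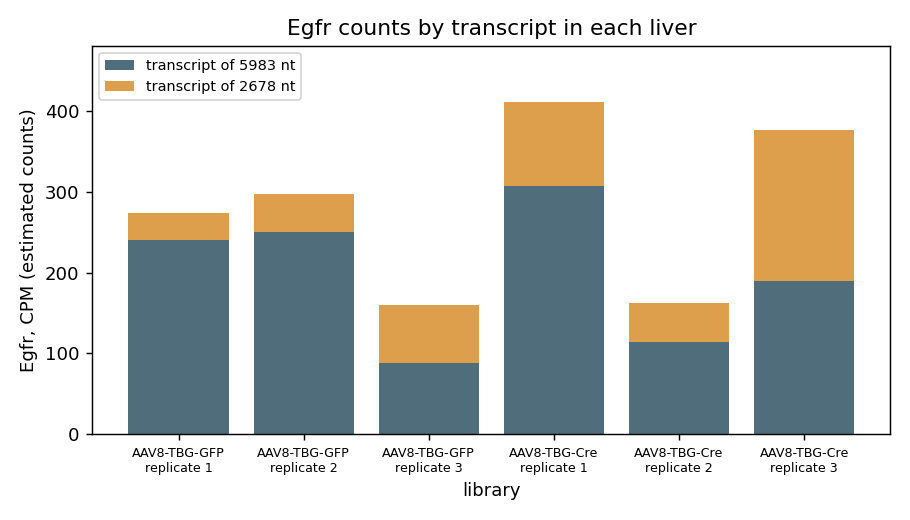
Egfr level in each of the 6 libraries, in CPM of estimated counts, with each bar split into the transcripts of 5983 nt (lower part) and 2678 nt (upper part). The share of the shorter one runs from 12.5% to 45.1% in the GFP livers and from 25.2% to 49.7% in the Cre livers, so the groups overlap.

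Erbb2 (gene 13866, chr11:98412484-98437716 in GRCm38.p6) encodes the ErbB receptor without a known ligand of its own, which acts as a partner of the others. It was measured at 1.93, 1.84 and 0.890 CPM in the GFP livers and at 2.10, 4.93 and 2.12 CPM in the Cre livers. Every Cre liver lay above every GFP liver, although the gap between 1.93 and 2.10 CPM was narrow and the GFP values rested on 38, 36 and 17 counts. The log2 fold change of 0.98 ± 0.45 (SE) did not pass the test (edgeR adjusted p = 0.265) and was 0.43 without AAV8-TBG-Cre replicate 2, the library with the highest level. Among libraries with the short name form the log2 ratio was 0.16, and among those with the long form 1.99. Mien1, which overlaps Erbb2 on the genome, had a log2 fold change of -0.17 (edgeR adjusted p = 0.526).

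Erbb3 (gene 13867, chr10:128567523-128589635) encodes the neuregulin receptor with a weak kinase, which signals through its partners. It was found at 77.5, 96.9 and 40.7 CPM in the GFP livers and 74.7, 47.8 and 42.3 CPM in the Cre livers. The groups overlapped over most of their range. Its log2 fold change was -0.38 ± 0.33 (SE; edgeR adjusted p = 0.555) and came to -0.04 once the name form entered the fit. That fit aside, the log2 ratio was -0.22 within the short name form and 0.15 within the long one.

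Met (gene 17295, chr6:17463349-17573980) encodes the receptor of hepatocyte growth factor, HGF. It stood at 110, 132 and 96.8 CPM in the GFP livers and at 96.2, 72.1 and 76.1 CPM in the Cre livers. In CPM every Cre liver lay below every GFP liver, narrowly at the closest pair (96.8 and 96.2 CPM), while in FPKM the groups overlapped. In CPM its log2 fold change was -0.47 ± 0.16 (SE), which passed the unadjusted threshold but not the adjusted one (edgeR adjusted p = 0.161). The unadjusted p stayed under 0.05 in 10 of 16 alternatives, and the log2 fold change lay between -0.61 and -0.28 over all 16. It was -0.34, -0.39 and -0.43, and no longer passed, without AAV8-TBG-GFP replicate 2, AAV8-TBG-Cre replicate 2 or AAV8-TBG-Cre replicate 3.

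Of the FGF receptors, Fgfr1 and Fgfr3 were higher in every liver labelled AAV8-TBG-Cre, while Fgfr2, Fgfr4 and Klb overlapped between groups in CPM. Fgfr1 (gene 14182, chr8:25518759-25575718), which with β-Klotho can receive FGF21 and is broadly expressed in mesenchymal cells, was measured at 9.86, 10.8 and 6.07 CPM in the GFP livers. In the Cre livers it reached 31.2, 20.8 and 19.1 CPM, so the lowest Cre liver was well above the highest GFP liver. The mean was 8.90 ± 2.49 CPM against 23.7 ± 6.55 CPM (SD, n = 3 each), a 2.66-fold difference. Its log2 fold change of 1.41 ± 0.26 (SE) passed the unadjusted threshold, and its edgeR adjusted p was 0.0554. The log2 ratio was 1.60 within the short name form and 1.71 within the long one. With the name form as a covariate it was 1.65 and was called (edgeR adjusted p = 0.00318), as it was without AAV8-TBG-Cre replicate 1, at 1.16 (edgeR adjusted p = 0.0378). Of 16 alternatives 4 called Fgfr1, and the adjusted p over all 16 lay between 0.000103 and 0.167.

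Fgfr3 (gene 14184, chr5:33721724-33737068), known best as a brake on bone growth and found in epithelia, stood at 34.6, 39.8 and 25.4 CPM in the GFP livers. In the Cre livers it was 60.0, 57.4 and 54.6 CPM, each above every GFP liver. The mean was 33.3 ± 7.31 CPM against 57.3 ± 2.68 CPM (SD, n = 3 each), or 1.72-fold. A log2 fold change of 0.79 ± 0.16 (SE) passed the unadjusted threshold, with an edgeR adjusted p of 0.0622. It was 0.69 within the short name form and 1.14 within the long one, and with the form as a covariate it was 0.91 and was called (edgeR adjusted p = 0.0288). Of 16 alternatives 3 called Fgfr3, with an adjusted p between 0.00287 and 0.187 over all 16. For both Fgfr1 and Fgfr3 the unadjusted p stayed under 0.05 in all 16 alternatives.

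Fgfr2 (gene 14183, chr7:130162451-130266808), a receptor for FGF7 and FGF10 in epithelia, was measured at 27.9, 20.8 and 26.8 CPM in the GFP livers and at 24.0, 35.2 and 30.0 CPM in the Cre livers. Fgfr2 had a log2 fold change of 0.24 ± 0.17 (SE; edgeR adjusted p = 0.472). Its 4881-nt transcript took 61.7% ± 4.49 of the Fgfr2 counts in the GFP group and 63.1% ± 7.52 in the Cre group (SD, n = 3 each; exact two-sided permutation p = 0.8). Among the GFP livers, the share of the 5035-nt Fgfr1 transcript was 0%, 0% and 100%, and that of the 3639-nt Ddr1 transcript ran from 27.3% to 100%, so the split was uneven within a group. The 4758-nt Fgfr1 transcript took 13.3%, 29.2% and 0% of the Fgfr1 counts in the GFP livers and 43.5%, 33.1% and 36.9% in the Cre livers, without overlap (exact two-sided permutation p = 0.1, the smallest possible here). Fgfr3 had 5 annotated transcripts, of which the 4020-nt one led with 73.0% ± 4.55 of the counts in the GFP group and 62.3% ± 7.52 in the Cre group (SD, n = 3 each; exact two-sided permutation p = 0.2).

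Fgfr4 (gene 14186, chr13:55152818-55168759), the main FGF15 receptor of hepatocytes, stood at 42.0, 33.1 and 52.1 CPM in the GFP livers and at 48.0, 48.8 and 54.3 CPM in the Cre livers. Fgfr4 had a log2 fold change of 0.25 ± 0.16 (SE; edgeR adjusted p = 0.440). Its groups overlapped in CPM but not in FPKM, a scale on which the median of all genes was itself shifted by 0.11 (log2). Klb (gene 83379, chr5:65348411-65386957), the partner of Fgfr4 in that receptor, was 25.5, 21.2 and 34.4 CPM in the GFP livers and 19.0, 18.7 and 25.6 CPM in the Cre livers. Its log2 fold change was -0.36 ± 0.20 (SE; edgeR adjusted p = 0.362), so the co-receptor and the receptor had fold changes of opposite sign, neither of which passed. Within the short name form the log2 ratio was 0.35 for Fgfr4 and -0.30 for Klb. Within the long form it was -0.02 and -0.64, so the opposite sign was not seen there. With the form as a covariate, Klb was at -0.47 (edgeR adjusted p = 0.162). For each of the 2 genes the unadjusted p was under 0.05 in 4 of 16 alternatives.

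Ddr1 (gene 12305, chr17:35681567-35704741), the collagen receptor, showed the largest difference of the 10. It was measured at 3.66, 2.19 and 2.25 CPM in the GFP livers, on 72, 43 and 43 counts. In the Cre livers it reached 13.0, 29.6 and 14.5 CPM, on 272, 720 and 301 counts. Each Cre liver was above each GFP liver, and AAV8-TBG-Cre replicate 2 was the highest. The mean rose from 2.70 ± 0.830 to 19.0 ± 9.18 CPM (SD, n = 3 each), or 7.04-fold, with a log2 fold change of 2.81 ± 0.38 (SE; edgeR adjusted p = 0.0338). Within the short name form the log2 ratio was 2.15 and within the long form 3.29. The call held in 7 of 16 alternatives. With all 6 livers it was lost in limma on FPKM (log2 fold change 1.87 with pseudocount 1, limma adjusted p = 0.0782, or 0.150 without the filter, and 2.75 with pseudocount 0.1, limma adjusted p = 0.0596). It was also lost without AAV8-TBG-GFP replicate 1 (3.09, edgeR adjusted p = 0.117), replicate 2 (2.68, 0.147) or replicate 3 (2.69, 0.101), and without AAV8-TBG-Cre replicate 2 (2.34, 0.0559) or replicate 3 (2.97, 0.0705). Without AAV8-TBG-Cre replicate 1 it was kept (3.03, 0.0177), and the unadjusted p was under 0.05 in all 16 alternatives.

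Promoter sequence is shown for Fgfr3 and Ddr1, which were higher together in the Cre livers; for Fgfr1 no entry was matched. The bases before the annotated start are those of RefSeq for GRCm38.p6. Capitals mark a GC box, GGGCGG on either strand, which was present in 32.7% of 32851 mouse promoters over the 250 bases before their start. The Fgfr3 stretch printed holds 3 such boxes, and the 250 bases before its other listed start hold 2. For Ddr1, the 250 bases before its 4 listed starts hold 1, 0, 1 and 3 boxes, and only the 108 bases outside the annotated gene are printed, in which no box lies. An AP-1 site (TGANTCA, 6.75% of promoters) stands before 1 of the Ddr1 starts, and none of these windows of Fgfr3 and Ddr1 holds a TATA box (TATAAA, 12.4% of promoters), searched on both strands.
Fgfr3, chr5:33721474-33721723, plus strand: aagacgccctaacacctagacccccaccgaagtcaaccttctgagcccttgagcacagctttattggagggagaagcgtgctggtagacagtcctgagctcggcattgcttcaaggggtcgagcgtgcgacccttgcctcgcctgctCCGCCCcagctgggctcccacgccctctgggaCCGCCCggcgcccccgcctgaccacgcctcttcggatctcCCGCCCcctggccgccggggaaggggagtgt
Ddr1, chr17:35704742-35704849, minus strand: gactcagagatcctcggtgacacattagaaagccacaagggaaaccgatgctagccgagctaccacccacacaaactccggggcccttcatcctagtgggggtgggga

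Markers of some other cell types were also higher in the Cre livers. Over all genes tested, 12.0% were higher and 8.41% lower at the unadjusted threshold, and 0.484% were higher at the adjusted one. Among the cholangiocyte markers, 10 of 11 could be tested, all 10 had a positive log2 fold change (median 2.35), all 10 passed the unadjusted threshold and 3 rose at the adjusted one: Sox9, a transcription factor of duct cells (1.63, edgeR adjusted p = 0.0454), Spp1, osteopontin (2.28, 0.0444), and Cldn4, a claudin of tight junctions near 0 in the GFP livers (0.0684 ± 0.0291 CPM against 3.97 ± 3.50 CPM, SD, n = 3 each; edgeR adjusted p = 0.0409). Ddr1, Erbb2 and the summed duct markers were all highest in AAV8-TBG-Cre replicate 2, while Fgfr1 and Fgfr3 were highest in AAV8-TBG-Cre replicate 1. For stellate cells and fibroblasts, 4 of 10 markers passed the unadjusted threshold upwards and the sum was 224 to 335 CPM in the GFP group and 339 to 686 CPM in the Cre group. For macrophages 5 of 8 did so, with sums of 124 to 156 CPM and 180 to 252 CPM. For endothelial cells none of 9 was higher and 1 was lower, and for hepatocytes 1 of 10 was higher and 1 lower. The summed stellate cell and fibroblast markers (686 CPM) and macrophage markers (252 CPM) were also highest in AAV8-TBG-Cre replicate 2. In that liver the hepatocyte sum was the lowest (75384 CPM), and the endothelial sum was not the highest (173 CPM). The part of these markers in the receptor differences was not tested.

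**Figure D4:**
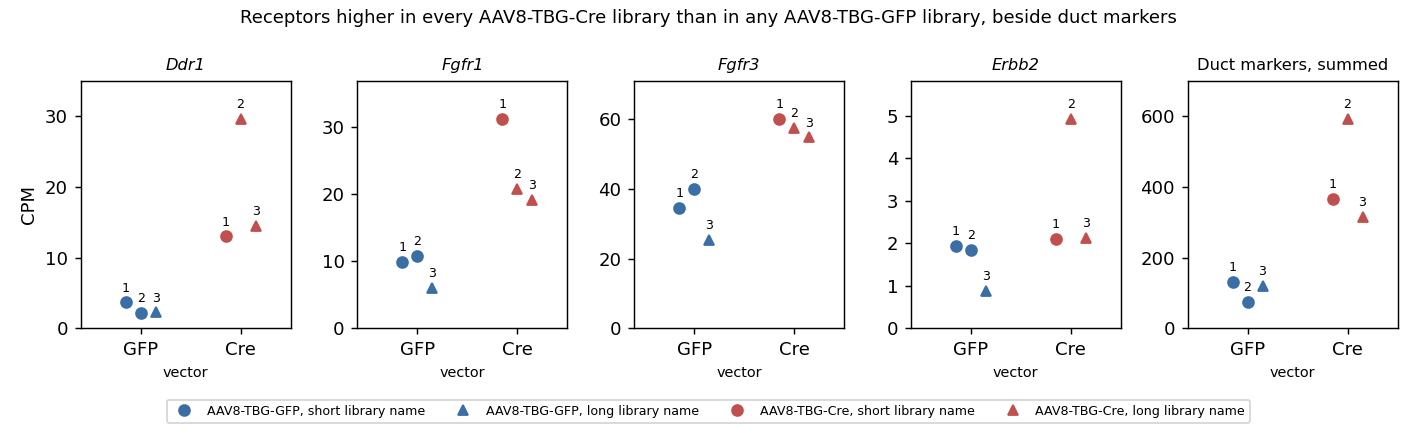
Level of Ddr1, Fgfr1, Fgfr3 and Erbb2, and the sum of the cholangiocyte markers, in CPM by vector; each point is 1 liver, numbered by replicate, with triangles for long library names. In every panel the Cre livers lie above the GFP livers, and AAV8-TBG-Cre replicate 2 is highest for Ddr1, Erbb2 and the duct markers (593 CPM).

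The ligands and activators of these receptors were followed through lists of pathway genes. The shares over all genes tested were 12.0% higher and 8.41% lower at the unadjusted threshold, and 0.484% higher at the adjusted one. Of 11 ErbB ligands 7 could be tested: 3 were higher at the unadjusted threshold and none was called at the adjusted one by edgeR. They were Hbegf, the heparin-binding EGF-like factor (log2 fold change 1.53, edgeR adjusted p = 0.0812), Nrg1, a neuregulin (1.69, 0.180), and Ereg, epiregulin (1.57, 0.205). Hbegf was scarce, at 0.407, 0.357 and 0.419 CPM in the GFP livers and 1.05, 1.52 and 0.866 CPM in the Cre livers. Nrg1 and Ereg were scarce too, on 13, 3 and 10 counts and on 4, 3 and 9 counts in the GFP livers, and Nrg1 overlapped between groups. Among 5 sheddases, which release ErbB ligands from the membrane, and their cofactors, Rhbdf1, an inactive rhomboid that guides the sheddase ADAM17, rose from 11.0 ± 1.05 to 19.3 ± 1.72 CPM (SD, n = 3 each), by 0.81 on the log2 scale (edgeR adjusted p = 0.0396). Its relative Rhbdf2 (0.55, 0.0711) and Adam17 itself (0.25, 0.271) did not pass the adjusted test.

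HGF activates Met only after proteases cut it. Of the 10 genes of this step, 2 rose at the adjusted threshold, where the share over all genes was 0.484%. At the unadjusted one 5 were higher and 1 was lower, against 12.0% and 8.41% of all genes. St14, the membrane protease matriptase, was at 0.978 ± 0.220 CPM in the GFP livers and 4.68, 14.3 and 6.31 CPM in the Cre livers (mean 8.44 ± 5.17, SD, n = 3), a log2 fold change of 3.11 ± 0.47 (SE; edgeR adjusted p = 0.0396). Spint1, the inhibitor of these proteases, was 0.813, 0.459 and 0.523 CPM against 2.58, 6.28 and 2.94 CPM, a log2 fold change of 2.71 ± 0.45 (SE; edgeR adjusted p = 0.0454). Both were highest in AAV8-TBG-Cre replicate 2, like Ddr1, and both are known from epithelial cells. Plat, tissue plasminogen activator, had a log2 fold change of 2.77 (edgeR adjusted p = 0.0619). Hgf and Hgfac are named after their values were seen. Hgf itself overlapped between groups at 0.32. Hgfac, the HGF activator and far more abundant, was 301, 303 and 301 CPM in the GFP livers and 273, 156 and 214 CPM in the Cre livers, without overlap (log2 fold change -0.49, edgeR adjusted p = 0.215).

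Of 22 FGF ligands and co-receptors, 11 could be tested. At the unadjusted threshold 3 were higher and 3 lower, where the shares over all genes were 12.0% and 8.41%. None was called at the adjusted threshold by edgeR. Fgf1, a ligand of every FGF receptor, was 194, 182 and 180 CPM in the GFP livers and 122, 77.3 and 80.2 CPM in the Cre livers, so that the groups stood well apart (log2 fold change -0.99, edgeR adjusted p = 0.0580). Gpc1, a heparan sulfate proteoglycan that binds FGFs, was at 81.6 ± 6.81 CPM against 31.1 ± 15.4 CPM (SD, n = 3 each; log2 fold change -1.39, edgeR adjusted p = 0.0698). Another glypican, Gpc3, went the other way (2.94, edgeR adjusted p = 0.0854) but was far scarcer. It stood at 0.356, 0.153 and 0.314 CPM in the GFP livers, on 7, 3 and 6 counts, and at 0.859, 4.27 and 1.25 CPM in the Cre livers. Among 5 genes listed for bile acid synthesis and its regulation, Cyp27a1 (-0.60), Nr0b2 (-0.71) and Cyp7a1, the rate-limiting enzyme (0.37), passed the unadjusted threshold. None passed the adjusted one (edgeR adjusted p = 0.119, 0.200 and 0.207).

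For Ddr1, the collagens that bind it were higher as well. Of 12 collagens 11 could be tested, and all 11 were higher at the unadjusted threshold, where the share over all genes was 12.0%. Of these, 10 were without overlap between groups, against 14.0% of all genes. The median log2 fold change was 1.76, and none was called at the adjusted threshold by edgeR. The smallest p-values belonged to Col1a2 (1.88, edgeR adjusted p = 0.0549), Col3a1 (2.09, 0.0585) and Col5a2 (1.76, 0.0601). Collagen counts summed to between 174 and 298 CPM in the GFP livers and between 502 and 1055 CPM in the Cre livers, the highest in AAV8-TBG-Cre replicate 2.

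Downstream of the receptors, no gene of the 3 lists was called at the adjusted threshold by edgeR. At the unadjusted one, where the share over all genes was 12.0% higher and 8.41% lower, of 22 adaptors and ERK cascade genes, 1 was higher and 2 were lower, with a median log2 fold change of -0.08. These were Gab2, a docking adaptor (0.95), Plcg1, a phospholipase (-0.36), and Rps6ka1, an ERK-activated kinase (-0.69), with edgeR adjusted p of 0.123, 0.109 and 0.134. Of 24 feedback inhibitors, 23 were tested and 17 had a positive log2 fold change (median 0.09). Without overlap between groups, 7 were higher, where the share over all genes was 14.0%. At the unadjusted threshold 4 were higher, among them Sh3kbp1 (1.08, edgeR adjusted p = 0.139), Spred1 (0.31, 0.205) and Socs5 (0.37, 0.212). Of 13 genes whose transcription follows ERK activity, 11 were tested, 8 had a positive log2 fold change (median 0.46) and 1 passed the unadjusted threshold: Ccnd1, cyclin D1, at 63.8 ± 19.6 CPM against 169 ± 81.3 CPM (SD, n = 3 each; log2 fold change 1.41, edgeR adjusted p = 0.112), with overlap between groups. Junb (0.48) and Etv5 (0.41) did not pass.

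Among 49 other receptor tyrosine kinases, 33 could be tested, with 12 higher and 2 lower at the unadjusted threshold and a median log2 fold change of 0.26, where the shares over all genes were 12.0% and 8.41%. The one call at the adjusted threshold was Aatk, a kinase known mainly from nerve cells, which fell from 35.2 ± 5.13 to 3.04 ± 0.891 CPM (SD, n = 3 each; log2 fold change -3.53, edgeR adjusted p = 0.00647). Ntrk2, a neurotrophin receptor (1.97, edgeR adjusted p = 0.0581) and Pdgfrb, a receptor of mesenchymal cells (1.04, 0.0854), passed the unadjusted threshold only.

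**Figure D5:**
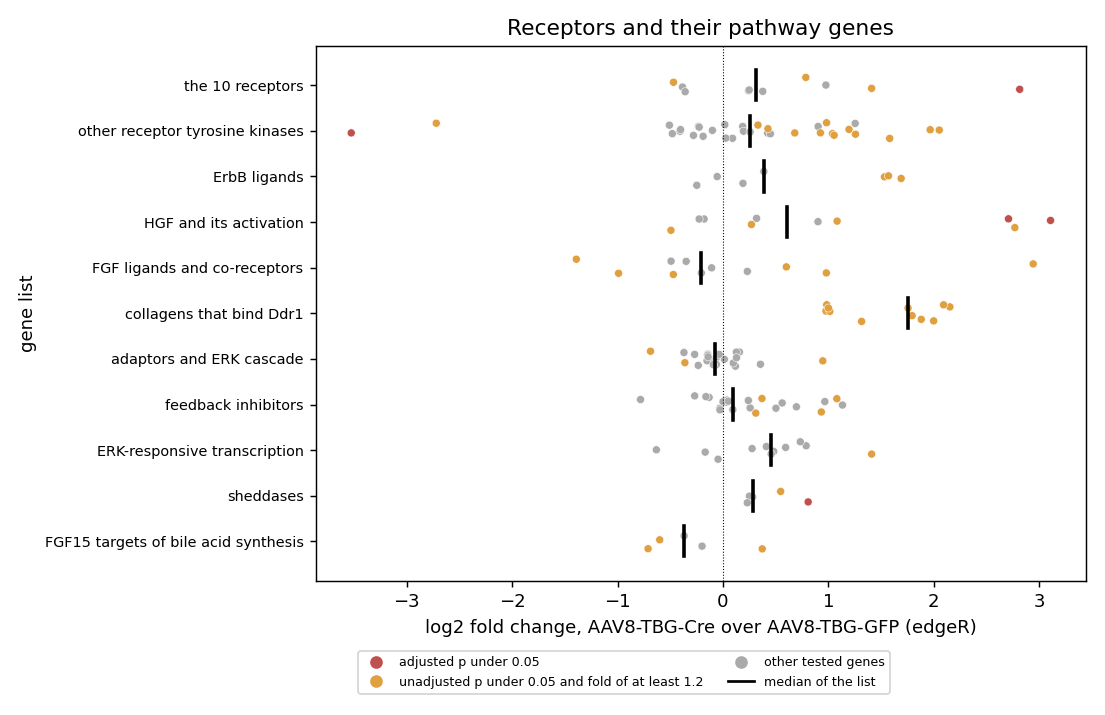
Log2 fold changes of the 10 receptors and of every tested gene in 10 lists of their pathways, libraries labelled AAV8-TBG-Cre over AAV8-TBG-GFP; each point is a gene, coloured by the test it passed, and the black bar is the median of the list. The collagens lie furthest right, with a median of 1.76, and the adaptors centre near 0, at -0.08.

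Across the 6 libraries, levels of the receptors on the log2 CPM scale varied together in part. Fgfr1 and Fgfr3 had a Pearson r of 0.97, Fgfr3 and Ddr1 of 0.87, Fgfr1 and Ddr1 of 0.84, and Erbb2 and Ddr1 of 0.81. Met ran opposite to Ddr1 (r = -0.85) and to Fgfr2 (r = -0.87), and Erbb3 opposite to Fgfr4 (r = -0.88). These are descriptions over 6 points that share their libraries and fall into 2 groups. Of 13431 genes, 360 had an r over 0.95 with Ddr1 and 20 with Egfr. The gene most like Ddr1 was Spint1 (r = 0.9988), named above as the protease inhibitor of HGF activation. For Erbb2 it was Itgav, an integrin chain (r = 0.9973), for Fgfr4 Tfrc, the transferrin receptor (r = 0.9879), and for Erbb3 Nfatc1, a transcription factor (r = 0.9979). Further genes most like a receptor were Zfp454 for Egfr (r = 0.9832), 4930412C18Rik for Met (r = 0.9957), 1700003E16Rik for Fgfr1 (r = 0.9921), AI837181 for Fgfr3 (r = 0.9928) and Klhdc4 for Klb (r = 0.9971).

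The coding sequences of the receptors were also searched for DRACH, the sequence context in which METTL14 and its partner write m6A (D stands for any base but C, H for any but G, and R for a purine). In GENCODE vM1, Egfr held 83 matches, or 22.8 per kb of coding sequence, Ddr1 held 47, or 17.2 per kb, and Fgfr3 held 42, or 17.4 per kb. The median of 21711 genes was 20.4 per kb. The 10 receptors lay between 16.3 per kb (Fgfr4) and 23.4 per kb (Erbb3), with Fgfr3, Fgfr4 and Ddr1 below the median and the other 7 above it. A match is a sequence of letters, and no methylation was measured in these libraries.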

How the data were processed

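Liver RNA of 6 mice was selected with oligo-dT or depleted of rRNA, and sequenced on DNBseq. For each transcript the authors deposited an expected count, an estimate that need not be whole (45.4% were whole), and FPKM, which the authors also deposited per gene. The labels' processing notes name HISAT2, Bowtie2, RSEM and mm10, and those of the paper list DESeq2, HTSeq and STAR. Versions and strand setting are not given in the sources used here. Expected counts were summed by NCBI gene ID and rounded. edgeR 4.0.16 in R 4.3.3 (quasi-likelihood test, TMM, filterByExpr, vector as the only factor) tested 13431 genes with Benjamini-Hochberg adjustment, and SE came from the F statistic. Permutation tests were exact and two-sided, with 0.1 as the smallest p for 3 against 3. CPM values carry counting error, largest for Erbb2 and Ddr1.

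As alternatives, the comparison was repeated in DESeq2 1.42.0, in edgeR with upper quartile or RLE scaling, without the low-count filter, with a minimum of 10 counts, with the replicate number as a block and with the name form as a covariate. It was also repeated in limma 3.58.1 on FPKM (pseudocount 1 or 0.1, a minimum of 0.5 FPKM in 3 libraries, or no minimum) and with each liver left out. Named genes are the 10 receptors, Mettl14, genes called at an adjusted p under 0.05 in a pathway list with up to 3 of the smallest p-values, and the gene most like each receptor, apart from a few that are not reported here. The members and lists were chosen with earlier results of these data known. Promoters came from RefSeq (GRCm38.p6; 8 of 10 receptors had an entry) and Egfr sequences from GENCODE vM1 (NCBIM37).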

Additional observations from a re-analysis of the deposited data

How the results depend on the processing

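The direction of each receptor's log2 fold change held under every alternative run, and 142 of these values stayed on the same side of the adjusted threshold, 7 moved past it and 9 no longer passed it. The number of receptors called at the adjusted threshold, 1 in the edgeR fit, was 3 with DESeq2, 3 without a filter on low counts and 3 with the name form as a covariate. It was 0 with limma on log2(FPKM + 1), on log2(FPKM + 0.1) and without the FPKM filter, and 0 with the replicate block (edgeR adjusted p = 0.1 for Ddr1, 0.0984 for Fgfr1). It lay between 0 and 2 when 1 liver was left out. Among the pathway lists the adjusted calls, 4 in the edgeR fit, were 29 with DESeq2, 14 without a filter, 1 with upper quartile normalization, 1 with the replicate block and 1 with each of the 3 limma fits, and between 0 and 23 with 1 liver left out (23 without AAV8-TBG-Cre replicate 1, 0 without AAV8-TBG-GFP replicate 2 or AAV8-TBG-Cre replicate 2). Over all genes, the 125 calls became 1165 with DESeq2, 372 without a filter, 66 with upper quartile normalization, 214 with the name form, 7 with the replicate block, 22, 27 and 9 with limma, and 0 to 928 with 1 liver left out (the 2 fits with 0 had 2079 and 1899 genes past the unadjusted threshold). The cause was not tested. In all these fits, counts at the unadjusted threshold were 4 to 6 receptors, against 4, and 36 to 60 pathway genes, against 53. The pathway genes tested varied as well, from 114 to 163, against 138. Over all genes the counts at this threshold ran from 1899 to 3730, against 2747, with 12138 to 18453 genes tested. Deviations of same-numbered livers correlated at 0.009, -0.263 and 0.209, and livers numbered 1 and 2 did not correlate best with their own number, so the numbers were not taken as pairs. The FPKM fits shifted the median of all genes by 0.11 and 0.14 (log2). The difference in the share of the short Egfr transcript lay between 3.02 and 20.8 percentage points with 1 liver left out and was 14.1 points in FPKM. Depth limits Erbb2 most, with 17 to 38 counts in the GFP livers.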
